A study of Mus musculus with 6 samples.

Results

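Amino acid transporters of 7 gene families, SLC1, SLC3, SLC6, SLC7, SLC36, SLC38 and SLC43, were examined in RNA sequencing of 6 mouse primary cancer cell lines. The members were all gene symbols made of Slc, a family number (1, 3, 6, 7, 36, 38 or 43), the letter a and a number, which gave 61 of the 55401 genes in the files. Each line had been cultured in DMEM with serum from a digested primary tumour of a C57BL/6 mouse. The mouse was labelled WT for the lines WT2, WT4 and WT6 and Rag1KO for the lines KO1, KO3 and KO7. Rag1 is needed to cut and join the gene segments of antibodies and T cell receptors, so a Rag1KO host lacks B and T lymphocytes. As labelled, the comparison sets cancer cells from hosts with adaptive immunity against cells from hosts without it. The labels name neither a tumour type nor separate animals for the lines, and the p-values therefore cover only the spread between these samples.

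Amino acid carriers set how fast a cell can take up and exchange the building blocks of protein, nucleotides and glutathione. Several act as chains: sodium-driven carriers such as those of SLC38 bring in glutamine, ASCT2 (Slc1a5) exchanges it for other neutral amino acids, and LAT1 (Slc7a5) exchanges large neutral amino acids against it. LAT1 and the cystine carrier xCT (Slc7a11) reach the cell surface only when bound to the heavy chain CD98 (Slc3a2). The transcription factor ATF4, made when the kinase GCN2 senses missing amino acids, is known to drive many of these genes through CARE elements in or near their promoters. On the lysosome, PAT1 (Slc36a1), SNAT7 (Slc38a7) and SNAT9 (Slc38a9) release or sense amino acids upstream of the growth kinase complex mTORC1. Some SLC6 members carry creatine, taurine or monoamines rather than proteinogenic amino acids, and Slc43a3 carries purine bases.

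Promoter sequences are shown for 5 members: Slc7a11 and Slc1a4, which hold a CARE core near their start, Slc3a2, which holds none in this window, and the lysosomal carriers Slc38a7 and Slc36a1, which hold an E-box. They are RefSeq sequences of GRCm38.p6, printed 5′ to 3′ on the gene's strand from 150 bases before to 10 bases after an annotated transcript start. Capitals mark the CARE core TGATGNAA or its reverse complement TTNCATCA in the first 2, and the E-box CACGTG, which is its own reverse complement, in the last 2.
Slc7a11 (chr3:50443604-50443763, minus strand): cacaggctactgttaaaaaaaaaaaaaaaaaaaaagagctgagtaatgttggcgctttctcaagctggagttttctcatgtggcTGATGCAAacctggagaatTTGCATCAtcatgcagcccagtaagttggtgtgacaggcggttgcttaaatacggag
Slc1a4 (chr11:20332704-20332863, minus strand): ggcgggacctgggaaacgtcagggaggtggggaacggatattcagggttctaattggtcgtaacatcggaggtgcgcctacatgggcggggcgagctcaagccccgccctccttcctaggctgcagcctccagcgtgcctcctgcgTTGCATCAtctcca
Slc3a2 (chr19:8713888-8714047, minus strand): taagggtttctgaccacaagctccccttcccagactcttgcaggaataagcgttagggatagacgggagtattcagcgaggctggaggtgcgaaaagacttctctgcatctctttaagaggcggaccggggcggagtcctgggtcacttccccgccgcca
Slc38a7 (chr8:95853482-95853641, minus strand): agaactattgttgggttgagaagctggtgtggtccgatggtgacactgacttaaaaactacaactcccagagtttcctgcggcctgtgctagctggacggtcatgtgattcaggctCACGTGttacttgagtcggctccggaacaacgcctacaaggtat
Slc36a1 (chr11:55204190-55204349, plus strand): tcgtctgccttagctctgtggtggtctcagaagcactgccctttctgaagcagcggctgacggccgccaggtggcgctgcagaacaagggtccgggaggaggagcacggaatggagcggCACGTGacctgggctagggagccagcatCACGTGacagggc
The Slc7a11 promoter held the core at 2 places, as TGATGCAA with its first base at −66 and in the opposite orientation as TTGCATCA at −47, while in Slc1a4 the core began at −4 and ran across the start. Promoters were given for 43 of the 61 members, 64 promoter windows of 300 bases in all because some genes have several starts. A CARE core lay in 5 of these 64 windows (7.81%) and in 3.97% of the 32851 promoter windows of all genes, and the members holding it were Slc1a4, Slc7a7, Slc7a11 and Slc6a21. Slc7a7, not printed above, accounted for 2 of the 5 windows, which have different starts. Its matches had their first base at −243, −141 and −1, each counted from the start of its own window. The matches at −243 and −1 have the same letters, TGATGCAA, and may be 1 site seen from 2 starts. The level of Slc7a7 was lowest in WT6 and KO7, the 2 lines where Slc7a11 and Slc1a4 were highest. An E-box lay in 9 of the 64 windows (14.1%) and in 7.15% of all windows. Besides Slc36a1 and Slc38a7 the members holding it were Slc1a6, Slc1a7, Slc6a3, Slc6a16, Slc7a14, Slc38a5 and Slc43a1. A match describes the letters and says nothing of binding.

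Of the 61 members, 36 had enough reads to be tested and 25 did not. No read was found in any library for 8 of them, Slc6a11, Slc6a13, Slc6a18, Slc6a21, Slc7a15, Slc36a3, Slc38a5 and Slc38a11, which allows up to 3 reads, or 2.64 to 3.48 normalized counts, in each library (counting error only). Others, Slc6a3, Slc6a5, Slc6a14, Slc6a16, Slc6a19, Slc7a9, Slc7a10, Slc7a12, Slc7a13, Slc7a14, Slc36a2, Slc38a3 and Slc38a8, reached at most 7.67 normalized counts, that is, reads divided by 1 size factor per library. Slc1a1, Slc1a7 and Slc6a15 had more reads in some lines and are described below. The silent or nearly silent genes took in the kidney and gut carriers Slc6a18, Slc6a19 and Slc7a9, and the GABA carriers Slc6a11 and Slc6a13.

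Libraries held 55409583 to 62998051 reads. Rag1, the gene that names the groups, had 41, 109 and 183 reads in KO1, KO3 and KO7 and 0 reads in the 3 lines labelled WT. Reads of Rag1 thus lay only in the lines labelled as lacking it, and the labels do not say which part of Rag1 the allele lacks. The 0 reads in the other lines do not by themselves go against the label WT. WT and Rag1KO below name the labels only, and every direction rests on them. WT6 stood apart from the other lines: among genes with at least 100 reads summed over the pair, 30.2% to 30.7% differed over 2-fold between WT6 and the other 2 lines labelled WT, against 15.8% to 20.2% within the other replicate pairs. Results are therefore also given without WT6. The 9 fibroblast and mesenchymal markers checked all had a mean above 100 normalized counts, with a summed level of 494696 in WT6 and 1441865 to 2281343 in the other 5 lines. WT6 had only 206 normalized counts of Col1a1 and 1 read of Thy1, against at least 478322 and 29802 in the others, and KO3 had 0 reads of Lum. The part of this loss in the transporter values of WT6 was not tested. The leukocyte marker Ptprc reached at most 3.83 normalized counts and Cd3e had 0 reads, while 3 of the 8 leukocyte markers had a mean above 100 and all 8 summed to 132 to 732 normalized counts in the WT lines and 313 to 1780 in the Rag1KO lines. Of 7 epithelial markers only Krt19 had a mean above 100: their sum was 10.6 normalized counts in WT6 and 1761 to 6337 in the other lines, and Epcam had 0 reads in every line. Xist was abundant in WT2 and WT4 alone, and the Y-linked genes Kdm5d, Uty and Ddx3y were expressed in the other 4 lines, while the Y-linked Eif2s3y had 0 reads in WT6 and 1438 to 2944 normalized counts in the Rag1KO lines. Xist had at most 15.3 normalized counts in the Rag1KO lines, and its part in the group values was not tested. Without WT6 the WT lines left, WT2 and WT4, are those with Xist, and the Rag1KO lines all express Y-linked genes. In every fit without WT6 the host label and this split therefore cannot be told apart.

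None of the 36 tested members passed the threshold for the host label (limma with Benjamini-Hochberg adjustment over 16137 genes, threshold 0.05, adjusted p 0.85 to 0.997). Over all genes 0.0062% passed, and at an unadjusted p under 0.05 limma gave 1 member, Slc38a1 (2.78%), against 4.67% of all genes. edgeR called 0 members (0% of all genes) and 0 at an unadjusted p under 0.05, against 717 of all 16137 genes. DESeq2 did the same for 34 members, and gave no p for Slc38a1 and Slc7a11. Over all genes it called 0.41%, and 1055 of the 16137 had an unadjusted p under 0.05. Without WT6 limma again called 0 members, against 0.0298% of all genes. The values of the WT and Rag1KO lines did not overlap for 3 of the 36 members, Slc6a8, Slc36a4 and Slc38a10 (8.33%, against 12.1% of all genes tested). Without WT6 the groups were apart for 5 members, these 3 with Slc6a4 and Slc7a2 (13.9%, against 20.5% of all genes). On the log2 scale 26 members were lower and 10 higher in the WT group, and their median was −0.41 against 0.00030 over all genes, and −0.11 for the same members without WT6. In a bulk culture, fewer cells of a type and less RNA per cell cannot be told apart.

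**Figure D1:**
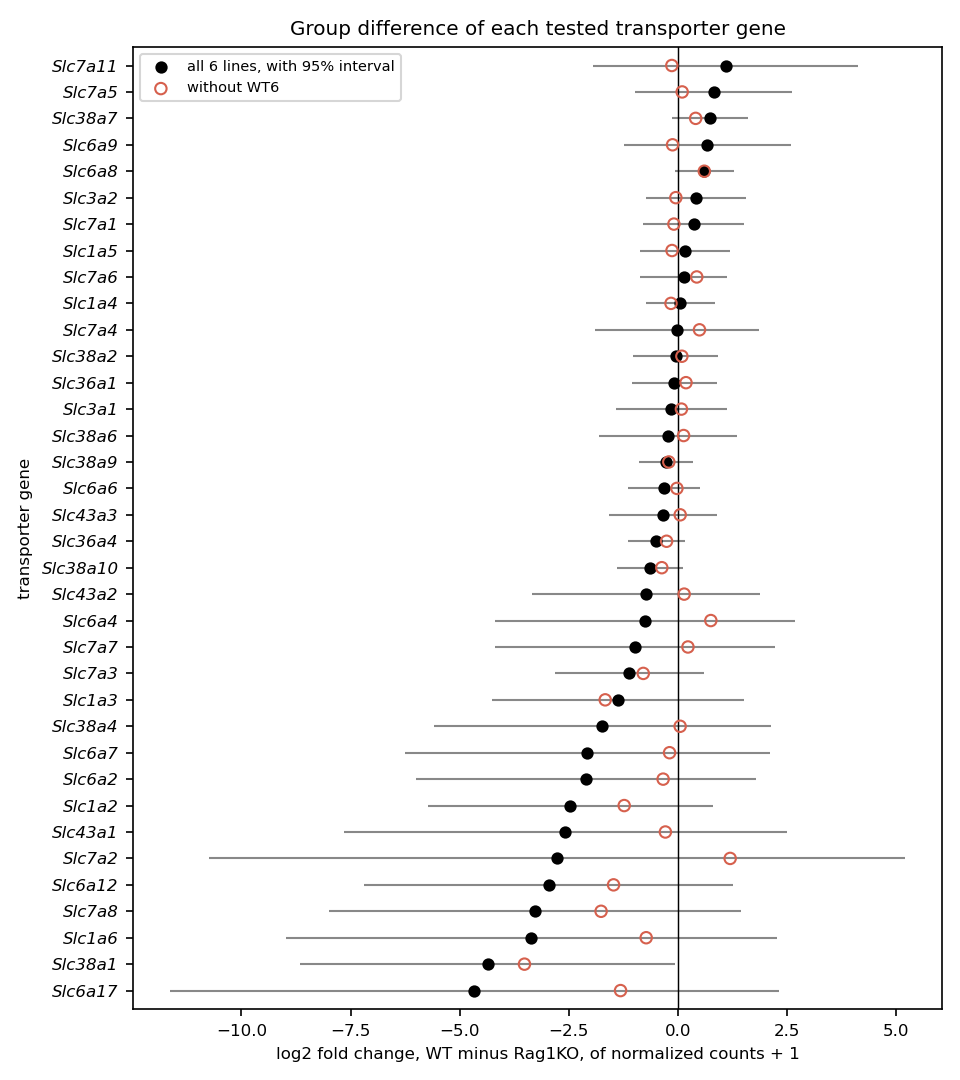
Log2 fold change (WT minus Rag1KO, of normalized counts + 1) of the 36 tested transporter genes, with filled points for all 6 lines, bars for the 95% interval of limma, and open points for the fit without WT6. The interval leaves out 0 only for Slc38a1, and 17 of the 36 genes lie on the other side of 0 without WT6.

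The spread between lines was wide, and WT6 was often at its edge. The highest and lowest line differed over 16-fold (log2 of normalized counts + 1) for 16 of the 36 tested members (44.4%), against 15.3% of all genes. WT6 was the lowest line for 20 members (55.6%, background 30.2%) and the highest for 7 (19.4%, background 27.4%). It was over 4-fold below the next line for 11 members (30.6%, background 8.43%) and over 4-fold above it for 0 (background 1.56%). These counts cover tested genes only, and the filter keeps a gene silent in WT6 alone more readily than a gene with reads in WT6 alone. The untested Slc6a15, with 806 normalized counts in WT6 and 46.5 in KO7, the next line, is therefore not in the 0. The 7 members highest in WT6 were Slc1a5, Slc3a2, Slc6a9, Slc7a1, Slc7a5, Slc7a11 and Slc38a7.

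**Figure D2:**
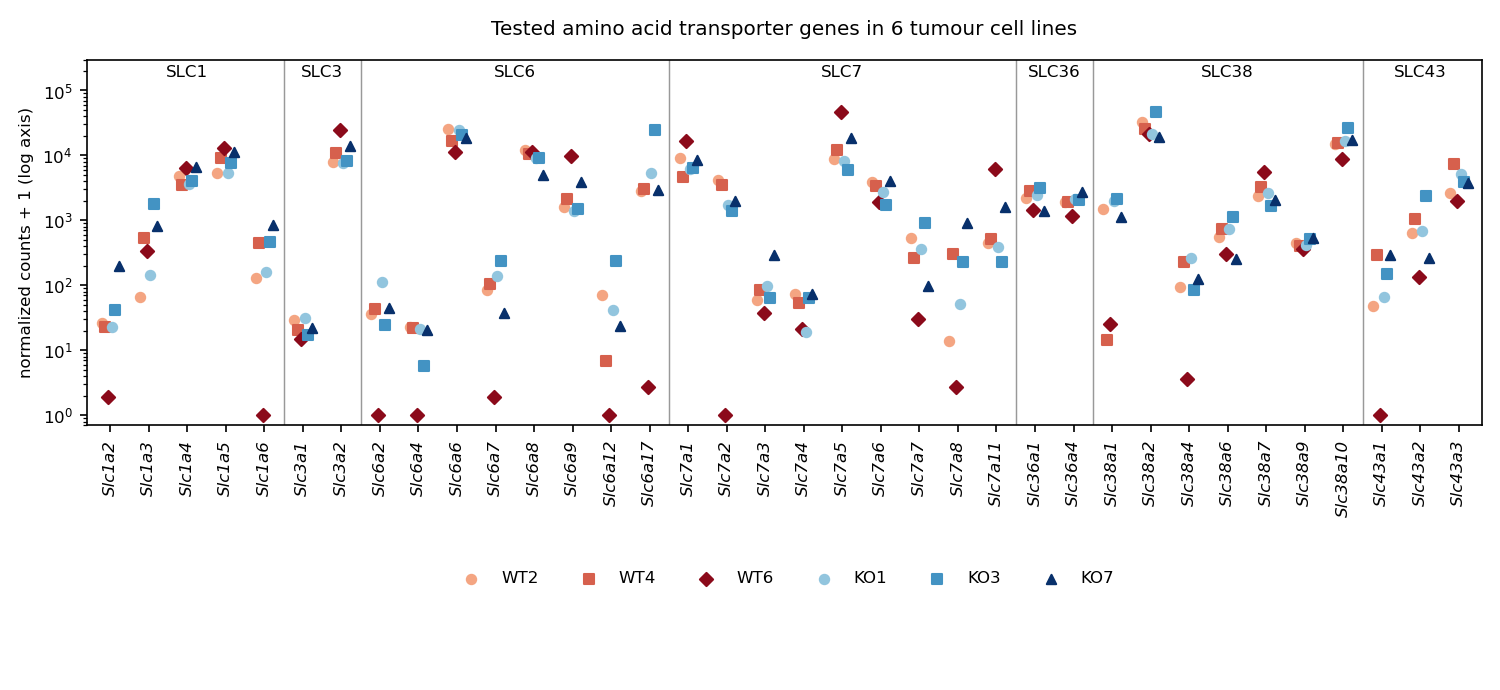
Normalized counts + 1 (log axis) of the 36 tested transporter genes in each of the 6 lines, grouped by family. Each point is 1 line. WT6 (dark red diamonds) is lowest for 20 genes, at 0 reads for several, and highest for 7.

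Per kilobase of exon, 8 members made up 73.2% to 82.4% of the summed level of all 61 in each line: Slc7a5, Slc3a2, Slc38a2, Slc38a10, Slc6a6, Slc1a5, Slc6a8 and Slc1a4. Slc7a5 took 10.01%, 13.1% and 32.9% of that sum in WT2, WT4 and WT6 and 10.09%, 5.83% and 18.2% in KO1, KO3 and KO7. Slc38a2 took 15.4%, 11.3% and 6.31% and 11.1%, 19.1% and 7.81% in the same order. The lines with the most Slc7a5, WT6 and KO7, had the smallest share of Slc38a2, but a larger share of 1 member lowers those of the others. In normalized counts Slc38a2 was also lowest in KO7 (18936) and WT6 (21267). KO1 was level with WT6 at 21269, and WT4, WT2 and KO3 had 25239, 32180 and 47368.

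Slc7a5 and Slc3a2 were the 2 most abundant members by this measure in WT4, WT6 and KO7, while Slc38a2 led in WT2 and KO3 and Slc6a6 in KO1. Slc7a5 (LAT1, ENSMUSG00000040010.10, chromosome 8, 121881150 to 121907694, mm10) imports leucine and other large neutral amino acids, and had 8796, 12249 and 46510.5 normalized counts in WT2, WT4 and WT6 and 8117, 6051 and 18521 in KO1, KO3 and KO7. WT6 was highest and KO7 next, and the other 4 lines lay together below them, so the groups overlapped. The log2 fold change (WT minus Rag1KO) was 0.82 (SE 0.73, 95% interval −0.97 to 2.62, adjusted p = 0.85 in limma), and 0.10 without WT6.

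Slc3a2 (CD98 heavy chain, ENSMUSG00000010095.13, chromosome 19, 8706882 to 8723369), which carries the light chains to the cell surface, had 7915, 11010.3 and 24256 normalized counts in WT2, WT4 and WT6 and 7698, 8346 and 13911 in KO1, KO3 and KO7. Again WT6 and KO7 were the highest lines, and the groups overlapped (log2 fold change 0.41, SE 0.47, −0.05 without WT6). Slc7a11 (xCT, ENSMUSG00000027737.10, chromosome 3, 49892526 to 50443614), which imports cystine for glutathione synthesis in exchange for glutamate, had 446, 512 and 6235 normalized counts and 388, 231 and 1621. The highest line exceeded the lowest 27.0-fold, the same 2 lines were on top, and the log2 fold change was 1.10 (SE 1.24), or −0.14 without WT6.

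The other partners of the heavy chain went another way. Slc7a6, which exchanges cationic for neutral amino acids, had 3921, 3327 and 1923 normalized counts in WT2, WT4 and WT6 and 2776, 1729 and 3982 in KO1, KO3 and KO7. Its relative Slc7a7 had 537, 261 and 29.0 normalized counts and 366, 915 and 95.9, and was lowest in the 2 lines with the most Slc7a5. Slc7a8 (LAT2), a broader neutral exchanger, had 13.1, 298 and 1.76 normalized counts and 49.8, 229 and 906, so that KO7 was highest and WT6 lowest. For none of the 3 were the groups apart, with log2 fold changes of 0.13 (SE 0.41), −0.98 (SE 1.31) and −3.28 (SE 1.93), or 0.43, 0.23 and −1.76 without WT6.

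Within each line the light chains were set against the heavy chain, both per kilobase of exon. The summed light chains came to 1.53, 1.35 and 1.95 times Slc3a2 in WT2, WT4 and WT6 and to 1.35, 0.993 and 1.57 times in KO1, KO3 and KO7. Slc7a5 made up 69.2%, 78.5% and 93.5% of the light chain level in the first 3 lines and 74.3%, 69.5% and 80.7% in the others. Slc7a11 made up 3.34% in WT6, 1.88% in KO7 and 0.705% to 0.947% in the other 4 lines. These shares depend on the annotated exon length, which is 13922 bases for Slc7a11 and 3708 for Slc7a5.

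**Figure D3:**
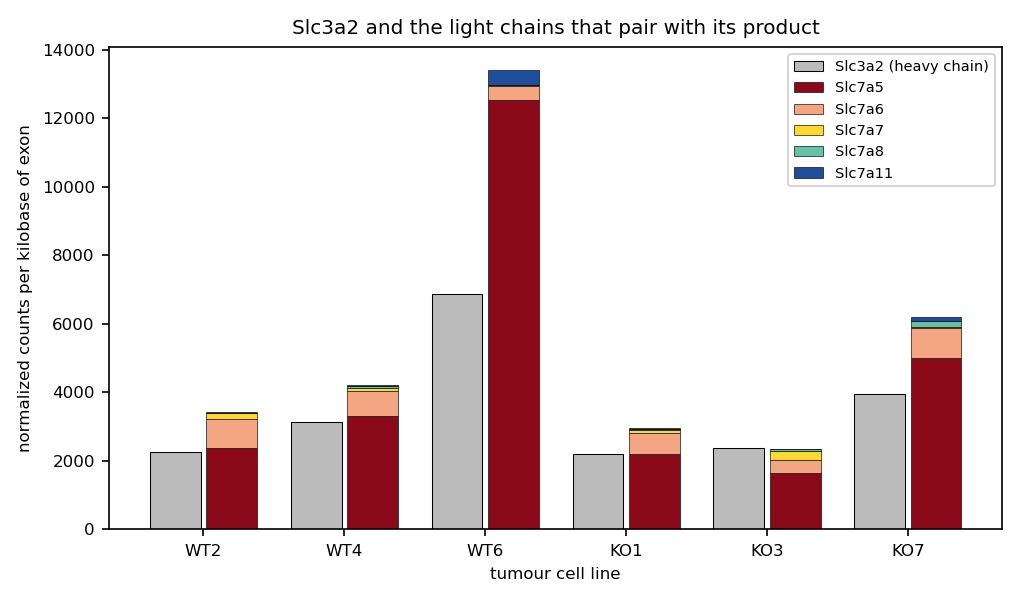
Level of Slc3a2 (grey) and of its light chain partners (stacked colours) in each line, in normalized counts per kilobase of annotated exon, 1 library per pair of bars. Slc7a10, with 1 read in all, is not drawn. The light chain bar is tallest in WT6 and next in KO7, and Slc7a5 is its largest part in every line.

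Among the glutamine and small neutral carriers, Slc1a5 (ASCT2), the obligate exchanger of glutamine, had 5319, 9252 and 12878 normalized counts in WT2, WT4 and WT6 and 5358, 7530.2 and 11291 in KO1, KO3 and KO7. Its order of the first 3 lines, WT6, KO7 and WT4, was that of Slc7a5, Slc3a2, Slc7a11 and Slc6a9, but its range was narrower (log2 fold change 0.16, SE 0.42). Slc1a4 (ASCT1), which exchanges alanine, serine and cysteine, had 4839, 3538 and 6503 normalized counts and 3639.6, 4111 and 6555. KO7 and WT6 were its highest lines, nearly level with each other (log2 fold change 0.06, SE 0.33). Without WT6 the log2 fold changes were −0.13 for Slc1a5 and −0.16 for Slc1a4.

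The system A genes lie in a row on chromosome 15 and differed in how they varied. Slc38a1 (SNAT1, ENSMUSG00000023169.15, 96571418 to 96642913), a sodium-driven glutamine importer, had 1484, 13.5 and 24.6 normalized counts in WT2, WT4 and WT6 and 2011, 2118 and 1109 in KO1, KO3 and KO7. WT4 and WT6 were low and WT2 lay within the range of the Rag1KO lines, so the groups overlapped. The log2 fold change was −4.35 (SE 1.75, 95% interval −8.65 to −0.06, adjusted p = 0.85 in limma), −3.52 without WT6, −3.10 without WT4 and −6.44 without WT2. It was much smaller in the count models, at −1.80 in edgeR and −1.79 in DESeq2.

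Its neighbour Slc38a2 (SNAT2, 96687392 to 96699730), the amino-acid-regulated system A carrier, was abundant in every line at 32179.8, 25239 and 21267 normalized counts in WT2, WT4 and WT6 and 21269, 47368 and 18936 in KO1, KO3 and KO7 (log2 fold change −0.05, SE 0.40, and 0.09 without WT6). Slc38a1 made up 2.30% of the system A level per kilobase in WT2, 0.0270% in WT4, 0.0594% in WT6 and 2.23% to 4.51% in the Rag1KO lines. Slc38a4 (SNAT4, 96994820 to 97055956) had 94.7, 226 and 2.64 normalized counts and 266, 83.4 and 126, the value in WT6 resting on 3 reads. WT6 was therefore low for Slc38a1 and Slc38a4, and WT4 only for Slc38a1. For Slc38a4 the log2 fold change was −1.73 (SE 1.58), or 0.05 without WT6.

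**Figure D4:**
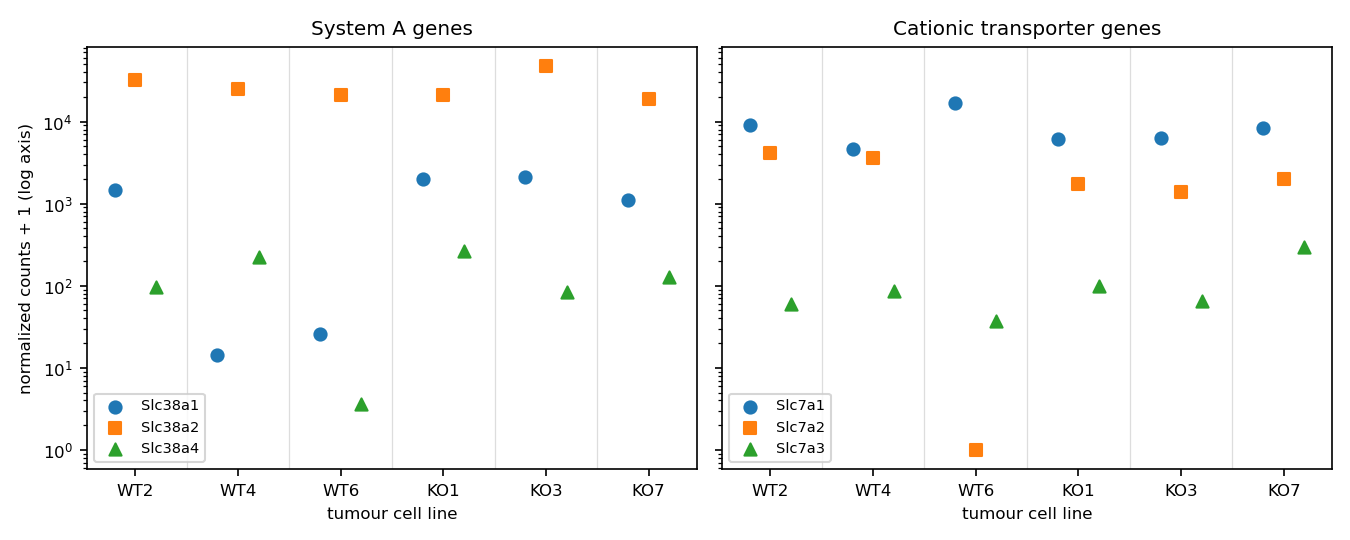
Normalized counts + 1 (log axis) of the system A genes Slc38a1, Slc38a2 and Slc38a4 (left) and the cationic carriers Slc7a1, Slc7a2 and Slc7a3 (right) in each line, 1 point per line. Slc38a1 is low in WT4 and WT6, Slc38a4 and Slc7a2 are low in WT6, and Slc38a2 and Slc7a1 are high in all 6 lines.

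The cationic carriers, which import arginine and lysine, were led by Slc7a1 (CAT1), at 9178, 4625 and 16788 normalized counts in WT2, WT4 and WT6 and 6184, 6361 and 8476 in KO1, KO3 and KO7. Its log2 fold change was 0.37 (SE 0.47), or −0.09 without WT6. Slc7a2 (CAT2, ENSMUSG00000031596.15, chromosome 8, 40862396 to 40922308), which supplies arginine in macrophages and liver, had 4136, 3559 and 0 normalized counts and 1713, 1372 and 1981. Lines WT2 and WT4 lay above every Rag1KO line, and WT6 had 0 reads, which allows up to 2.64 normalized counts.

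The direction of Slc7a2 thus turned on WT6: the log2 fold change was −2.77 (SE 3.26) with all lines and 1.20 without it (adjusted p = 0.982 in limma), and 0.59 in edgeR and DESeq2, which weigh a line without reads differently. It made up 35.8% and 47.9% of the summed cationic carrier level per kilobase in WT2 and WT4 and 20.9% to 25.0% in the Rag1KO lines. Slc7a3 (CAT3) was low, at 58.4, 85.0 and 36.1 normalized counts and 97.7, 63.7 and 295 (log2 fold change −1.11, SE 0.70).

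Among the large neutral carriers that need no heavy chain, Slc43a1 (LAT3) had 47.3, 289 and 0 normalized counts in WT2, WT4 and WT6 and 66.1, 151 and 294 in KO1, KO3 and KO7. Slc43a2 (LAT4) had 649, 1061 and 133 normalized counts and 688, 2332 and 263. Both were lowest in WT6, and neither separated the groups (log2 fold changes −2.58, SE 2.07, and −0.73, SE 1.07; −0.29 and 0.15 without WT6). Slc7a5 made up 84.3% to 99.9% of the large neutral carrier level per kilobase across the lines, the lowest share being in KO3 and the highest in WT6.

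The glutamate and aspartate carriers, best known for clearing glutamate around neurons, were low and uneven. Slc1a3 (EAAT1) had 64.5, 529 and 342 normalized counts in WT2, WT4 and WT6 and 143, 1768 and 808 in KO1, KO3 and KO7. Slc1a6 (EAAT4) had 127, 454 and 0 normalized counts and 161, 467 and 835, and Slc1a2 (EAAT2) had 25.2, 22.2 and 0.880 and 22.0, 40.6 and 201. KO3 and KO7 were the 2 highest lines for all 3 genes. The log2 fold changes were −1.37 (SE 1.18), −3.36 (SE 2.30) and −2.47 (SE 1.33), or −1.66, −0.73 and −1.23 without WT6. Slc1a1 (EAAT3), too low to be tested, had 0 reads in the WT lines and 19.2, 31.3 and 5.81 normalized counts in the Rag1KO lines, whose mean was at least 6.57-fold higher, taking 3 reads per library as the limit. Slc1a7 (EAAT5), also not tested, ranged from 0.958 in KO1 to 29.9 in WT6.

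In SLC6, the largest of these families with 19 members, 8 were tested. Slc6a8 (ENSMUSG00000019558.14, chromosome X, 73673150 to 73682502), the creatine carrier, had 12273, 10629 and 11429.6 normalized counts in WT2, WT4 and WT6 and 9069, 9225 and 5045 in KO1, KO3 and KO7. Every WT line lay above every Rag1KO line, as for 6.49% of all genes in that direction, and the log2 fold change was 0.61 (SE 0.27, 95% interval −0.07 to 1.28, adjusted p = 0.85), also 0.61 without WT6 and 0.32 without KO7. This gene is X-linked, and the part of the Xist difference in these values was not tested. Slc6a6, the taurine carrier, was among the most abundant members, with 25825, 16840.3 and 11217 normalized counts and 24704, 20606 and 18619 (log2 fold change −0.32, SE 0.33, −0.02 without WT6).

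Slc6a9 (GlyT1), which takes up glycine, had 1610.3, 2144 and 9785 normalized counts in WT2, WT4 and WT6 and 1382, 1507 and 3957 in KO1, KO3 and KO7, again highest in WT6 and next in KO7 (log2 fold change 0.68, SE 0.78, −0.12 without WT6). Slc6a17, a vesicular carrier of neutral amino acids known from neurons (chromosome 3, 107467543 to 107518018), had 2841, 3003 and 1.76 normalized counts and 5303, 24848 and 2900.5. KO3 was far above the other lines, WT6 had 2 reads, and the remaining 4 lines were within 2841 to 5303 (log2 fold change −4.66, SE 2.85, −1.31 without WT6). Slc6a15, a branched-chain amino acid and proline carrier also known from neurons, showed the reverse: 806 normalized counts in WT6, 46.5 in KO7 and at most 1.01 in the other 4 lines, too few lines with reads for the test.

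The minor SLC6 members followed WT6 as well. The proline carrier Slc6a7 had 83.6, 103 and 0.880 normalized counts in WT2, WT4 and WT6 and 138, 233 and 36.8 in KO1, KO3 and KO7. Slc6a12, a betaine and GABA carrier, had 70.5, 5.79 and 0 and 40.2, 238 and 22.3, and the noradrenaline carrier Slc6a2 had 35.2, 41.5 and 0 and 112, 23.2 and 43.6. WT6 was lowest for each, and the log2 fold changes were −2.07, −2.96 and −2.10 (SE 1.71, 1.73 and 1.59), or −0.19, −1.47 and −0.34 without it. The summed level of 6 astrocyte and neuron markers was 51.0 to 977 normalized counts in the WT lines and 42.2 to 2923 in the Rag1KO lines. Only Aldh1l1 had a mean above 100, and it gave 2899 of the 2923 in KO3, where Slc6a17 was highest. The neuronal markers were low: Rbfox3 had 0 reads in every line, Snap25 was 0 in KO3 and highest in WT6 at 21.1, and Syp lay between 7.05 and 21.1. Their part in these values was not tested.

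Counting WT6 at 3 reads or fewer while the other 5 lines exceeded 100 normalized counts picked 3 of the 36 tested members, Slc1a6, Slc6a17 and Slc7a2 (8.33%, against 1.11% of all genes). The 3 carry different substrates and lie on different chromosomes.

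Of the lysosomal and proton-coupled carriers, Slc36a1 (PAT1), which exports small neutral amino acids from the lysosome, had 2211, 2865 and 1433 normalized counts in WT2, WT4 and WT6 and 2449, 3157 and 1396 in KO1, KO3 and KO7. Slc38a7 (SNAT7), which exports glutamine from the lysosome, had 2388, 3267 and 5528 normalized counts and 2660.2, 1694 and 2067. WT6 was highest for Slc38a7 and next to lowest for Slc36a1. Both promoters shown above hold an E-box, as do those of members outside this group. The log2 fold changes were −0.08 (SE 0.40) for Slc36a1 and 0.74 (SE 0.36, 95% interval −0.14 to 1.61) for Slc38a7, or 0.19 and 0.41 without WT6. Slc38a9 (SNAT9), the arginine sensor that activates mTORC1, varied least, at 440.1, 397 and 359.9 normalized counts and 410.2, 514 and 532 (log2 fold change −0.28, SE 0.25).

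Slc36a4 (PAT4, ENSMUSG00000043885.14, chromosome 9, 15709738 to 15743361), a proline and tryptophan carrier, had 1890.3, 1932 and 1173 normalized counts in WT2, WT4 and WT6 and 2123, 2031 and 2769.7 in KO1, KO3 and KO7. Slc38a10 (ENSMUSG00000061306.16, chromosome 11, 120103960 to 120151346), a less well characterised relative of the glutamine carriers, had 14967, 15467 and 8689 normalized counts and 16672, 26172 and 17327. For both genes each WT line lay below each Rag1KO line, as for 5.6% of all genes, but WT2 and WT4 came close to the lowest Rag1KO line. The log2 fold changes were −0.49 (SE 0.27) and −0.64 (SE 0.31), or −0.26 and −0.37 without WT6, with an adjusted p of 0.85 for each in limma.

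The tested members not given line by line were Slc3a1 (14.1 to 30.7 normalized counts), Slc6a4 (0 to 22.2), Slc7a4 (18.2 to 73.5), Slc38a6 (251 to 1131) and the purine base carrier Slc43a3 (1977 to 7435), and each overlapped between the groups.

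Other genes of amino acid handling were read from the same fit, in lists chosen with earlier results of these data known. Of the GCN2-ATF4 response, 24 genes were tested, 0 passed, and 21 were higher in lines labelled WT, with a median log2 fold change of 0.55 against 0.00030 over all genes. Without WT6 these medians were 0.14 and 0.01. The 4 with the lowest p were Ddit3 (0.90, SE 0.35), a stress transcription factor, Atf4 itself (0.52, SE 0.24), the secreted Stc2 (2.04, SE 1.03) and Ppp1r15a (1.0, SE 0.62), which turns the response off. Atf4 had 18029.5, 18188 and 28248 normalized counts in WT2, WT4 and WT6 and 13212, 16841 and 14231 in KO1, KO3 and KO7, without overlap. The groups were apart for 3 of the 24 genes (12.5%, against 12.1% of all genes): Atf4 and Ddit3, and Gcn1l1 in the other direction. The asparagine synthetase gene Asns, a classical ATF4 target, had 7284, 7764 and 18567 and 5566, 7497 and 9941, and Trib3, another target, 1171, 3763 and 16580.0 and 963, 2760.0 and 3156. Asns and Trib3 were chosen after their values were seen. WT6 was highest for Atf4, Asns and Trib3, as for Slc7a5, Slc7a11 and Slc3a2. KO7, next highest for those carriers, was also next highest for Asns but next lowest for Atf4. Among the other genes of the list KO7 came second to WT6 for Mthfd2, Phgdh, Psat1, Eif4ebp1 and Cth, which were likewise chosen after their values were seen. In the same list KO7 was the lowest line for Atf3, Cebpb and Jdp2. It was next to lowest for Ddit3, Ppp1r15a, Atf5, Ddit4 and Impact. Without WT6 the log2 fold changes were 0.30 for Atf4, 0.55 for Ddit3, 1.43 for Stc2, 0.31 for Ppp1r15a, 0.01 for Asns and 0.05 for Trib3.

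**Figure D5:**
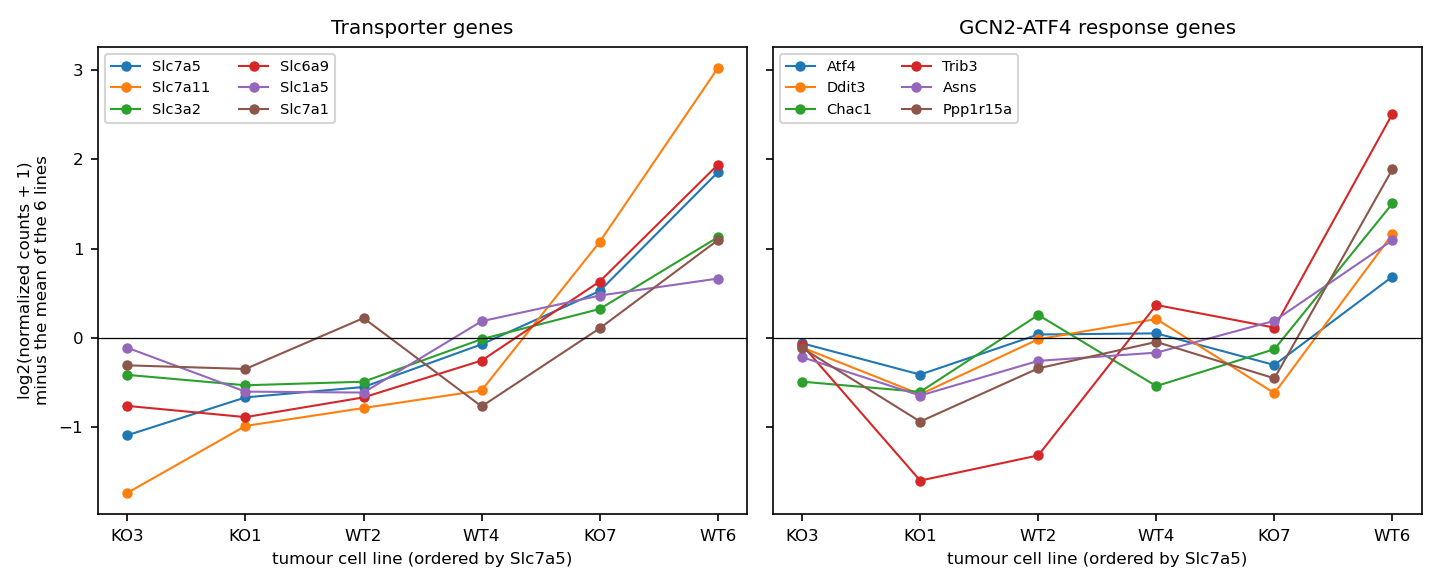
Log2(normalized counts + 1) minus the mean of the 6 lines for 6 transporter genes (left) and 6 GCN2-ATF4 response genes (right), with the lines ordered by Slc7a5. Connecting lines only join the points of 1 gene. All 12 genes are highest in WT6, while KO7 is second for Slc7a5, Slc7a11, Slc3a2, Slc6a9, Slc1a5 and Asns and not for the other 6. The genes drawn are a selected part of their lists. WT6 was the lowest line for 20 of the 36 tested members and for Eif2ak4, Ddit4 and Impact of the response list. It was highest for 27.4% of all genes.

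Of the genes that sense amino acids upstream of mTORC1, 36 were tested, 0 passed and 24 were higher in lines labelled WT (median 0.14, or 0.06 without WT6). The groups did not overlap for 6 of them (16.7%, against 12.1% of all genes). The 4 with the lowest p were Rragc, a Rag GTPase (0.57, SE 0.17), Lamtor1, which anchors them to the membrane (0.47, SE 0.16), and the folliculin partners Fnip1 (0.51, SE 0.15) and Fnip2 (1.0, SE 0.33), each with an adjusted p of 0.85 in limma. Fnip2 had 3523, 3713 and 2969.8 normalized counts in WT2, WT4 and WT6 and 2736, 1373 and 1288 in KO1, KO3 and KO7. Without WT6 they were 0.51, 0.47, 0.46 and 1.10 in the same order of genes, close to the values with it. Nprl2 and Mlst8 also had groups apart, in the other direction.

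Among 18 tested amino acid and peptide carriers outside the 7 families, 11 were higher in lines labelled WT and 0 passed (median 0.15). The cystine exporter of the lysosome, Ctns, had 1686, 2091 and 1453 normalized counts in WT2, WT4 and WT6 and 1301, 1142 and 1073 in KO1, KO3 and KO7 (log2 fold change 0.56, SE 0.21, 0.68 without WT6). Mfsd12, which carries cysteine into lysosomes and melanosomes, had 1610.3, 1582 and 7377 and 1010.0, 1289.6 and 861 (1.35, SE 0.64, 0.62 without WT6). The groups were apart for both, and for the weakly expressed Slc17a8 (2.62, SE 1.08), that is, for 3 of the 18 (16.7%, against 12.1% of all genes). Slc17a5, the lysosomal sialic acid exporter, overlapped (0.52, SE 0.31). Of 26 enzymes of glutamine, glutamate and related amino acids, 15 were higher and 0 passed (median 0.07). The lowest p belonged to Ggt7 (−3.14, SE 1.22), Gpt (−0.97, SE 0.51), Got2 (0.41, SE 0.23) and Chac1 (0.81, SE 0.52), which degrades glutathione, and the groups overlapped for each.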

How the data were processed

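RNA was taken from 6 cultured lines with Qiagen RNeasy kits and libraries were made with the Illumina TruSeq Stranded kit, per the labels' protocols. The tools listed in the submitters' processing notes are STAR 2.7.9a, Trim Galore 0.6.6, DESeq2 and FastQC, with the build mm10 and no roles; the read counter, its strand setting and the annotation are not given in the sources used here. The deposited signal values are read numbers scaled by a size factor for each library. Undoing it gave whole reads within 0.01 for every value, and the factors equal median-of-ratios factors over the 6 libraries. Some genes have a span overlapped by a gene on the opposite strand (among them Slc1a2, Slc3a1, Slc6a4, Slc6a6, Slc6a9, Slc7a2, Slc7a4, Slc7a5, Slc7a7, Slc7a11, Slc38a9, Slc38a10 and Slc43a2). Without the strand setting it is not known whether reads of both were counted apart.

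The filterByExpr function of edgeR, applied to those reads, left 16137 genes. On log2(value + 1), limma 3.58.1 with a trended variance tested WT minus Rag1KO, two-sided. The added 1 makes folds of low genes smaller, but a mean of logs gives a line near 0 much weight. Folds could thus be larger than in the count models: Slc43a1 was −2.58 in limma and −0.61 in edgeR (TMM), and Slc1a6 −3.36 and −1.34. Slc1a2 hardly moved (−2.47 and −2.45). Members, lists, roles and the naming rule were chosen with earlier results of these data known. The naming rule took tested members with groups apart, the 10 of lowest p, the 10 of widest range, members with known roles, and the 4 of lowest p in each other list. Alternatives used edgeR 4.0.16, DESeq2 1.42.0 (R 4.3.3), other filters, scalings, a pseudocount of 0.1, sample weights and leaving out each library. Coordinates and merged exon lengths are from GENCODE M21, where all 61 members matched by ID, 60 of them in the same version. Levels are compared between genes only per kilobase of exon. Intervals are at 95%. The values of 1 untested member are not reported here.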

Additional observations from a re-analysis of the deposited data

How the results depend on the processing

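The number of members called was 0 under every alternative run, with no p from DESeq2 for Slc38a1 and Slc7a11. Over all genes limma called 1, edgeR with TMM or RLE factors 0 (717 and 720 at an unadjusted p under 0.05), DESeq2 65, and limma with 1 library left out 0 to 5, the 5 without WT6. The median log2 fold change of the tested members stayed below 0, from −0.62 to −0.12 with 1 library left out and the filter applied anew. Of 276 values of the 31 tested members given line by line under the other settings, 270 kept their direction. The exceptions were Slc7a2, at 0.59 in edgeR with either scaling and in DESeq2, and, with sample weights, Slc1a4 at −0.07, Slc36a1 at 0.08 and Slc38a2 at 0.04. With 1 library left out, 13 of these members changed direction at least once, with log2 fold changes over the 6 fits of: Slc1a4 −0.16 to 0.31, Slc1a5 −0.13 to 0.50, Slc3a2 −0.05 to 0.76, Slc6a9 −0.12 to 1.18, Slc7a1 −0.09 to 0.84, Slc7a2 −4.81 to 1.20, Slc7a6 −0.18 to 0.43, Slc7a7 −1.85 to 0.23, Slc7a11 −0.14 to 1.91, Slc36a1 −0.41 to 0.19, Slc38a2 −0.30 to 0.37, Slc38a4 −2.93 to 0.05, Slc43a2 −1.49 to 0.15. Leaving a library out also changes which genes pass the filter. No paired analysis was possible because the groups share no replicate number. With 3 lines a group the 95% interval reached 0.623 on the log2 scale to either side for Slc38a9, the narrowest of the 36 tested members, 1.84 at the median and 7.98 for Slc7a2, the widest.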

Other observations

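The surroundings of members that were nearly silent in WT6 were read after their values were seen. Beside Slc7a2 on chromosome 8, which had 0 reads in WT6, the next protein-coding gene Pdgfrl (40926212 to 40990785, 3904 bases away), a relative of PDGF receptors, had 4.40 normalized counts in WT6 and 411 to 1272 in the other 5 lines. The gene after it, Mtus1, had 493 normalized counts in WT6, 413 in KO7 and 1803 to 4970 in the remaining lines. WT6 was therefore lowest for Slc7a2 and Pdgfrl and next to lowest, above KO7 alone, for Mtus1. Around Slc6a17 on chromosome 3, Rbm15 had 1269 normalized counts in WT6 and 751 to 1144 in the others, while Kcnc4 and Ubl4b reached at most 2.32 in any line. Beside Slc1a6 on chromosome 10 (0 reads in WT6), Casp14 had 0 in WT6 and 28.1 to 413 in the other lines, and Ccdc105 had 0 in WT6 and 2.01 to 220.1 in the others. Near Slc7a8 on chromosome 14, Homez had 296 normalized counts in WT6 and 220.4 to 381 in the others. Near Slc38a1 on chromosome 15, Scaf11 had 11648 and 7834 normalized counts in WT4 and WT6, where Slc38a1 was low, and 9867 to 12664 in the other lines. On chromosome 2, Slc43a1 (0 in WT6) and Slc43a3 (1977 in WT6) lie 72985 bases apart. Rtn4rl2 between them had 0 in WT6, at most 2.01 in WT2 and KO1, and 31.3 to 113 in the remaining lines, and Timm10 before them had 1138 normalized counts in WT6 and 375 to 758 in the others.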
